A study of Arabidopsis thaliana with 48 samples.

Results

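Salt was added to a combination of high light and heat stress, and the transcript levels of Arabidopsis seedlings under Salt+HL+HS were set against those under HL+HS alone. The members are the 21536 genes, of 32833 in the table of normalised counts, whose mean over all 48 libraries was at least 10. The genes nearest to that limit were AT1G06148 and TIM44-1, at 10.0 each and kept, and AT4G05097 and AT3G12910, at 9.99 each and not tested. All seedlings were wild type Col-0 and 10 days old, and each library came from whole, pooled seedlings. HL+HS seedlings were raised on plain agar medium and then kept for 1.5 h at 700 µmol m-2 s-1 and 33°C. Salt+HL+HS seedlings met the same light and temperature for the same time, but had been on medium with 50 mM NaCl since sowing, so the salt treatment was long and the other 2 treatments short. The most like comparison was salt added to heat only (Salt+HS against HS), which was given at the growth light of 50 µmol m-2 s-1. Untreated Control seedlings stayed in that light at 21°C, on plain medium. Each group had 3 libraries.

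Salt stress acts on plants through lost water and through sodium itself. Water loss leads to abscisic acid (ABA), which is bound by PYR/PYL receptors that then block clade A protein phosphatases 2C (PP2C). This frees SnRK2 kinases to activate bZIP factors that bind ACGTG-containing elements in the promoters of dehydration genes. Sodium is pumped out by SOS1 and held back from the shoot by HKT1. Heat unfolds proteins and activates heat shock factors (HSF), which switch on heat shock protein (HSP) genes, and excess light drives the formation of reactive oxygen species (ROS) in chloroplasts.

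The 6 libraries compared held 67888254 to 81054150 recovered reads, within the range of 67888254 to 87569857 over all 48 libraries. All 6 had high levels of the heat gene HSP101 and the light gene ELIP1. HSP101, a heat shock chaperone, stood at 1721499 to 2003382 normalised counts in them against 1055 to 1133 in Control, and ELIP1, an early light-induced protein, at 22404 to 36532 against 526 to 586. ELIP2, another early light-induced gene, had means of 996 in HL+HS and 2048 in Salt+HL+HS against 1342 in Control. Some other libraries went against their labels in HSP101 and ELIP1. HSP101 stood at 1046 to 1227 in the 6 libraries labelled PQ+HL+HS and Salt+PQ+HL+HS, where PQ is paraquat, but at 38019 to 159545 in the 12 labelled Salt, PQ, HL and Salt+PQ, none of which names heat. ELIP1 stood at 798 to 1018 in the libraries labelled Salt+HL and PQ+HL. It was at 22318 to 31854 in those labelled PQ+HS and Salt+PQ+HS, which do not name high light. The dehydration gene RD29B and the ABA signalling gene HAI1 did not follow the salt labels either. RD29B had means of 14822 in HL and 16875 in PQ, against 6483 in Salt and 2269 in Salt+HL. For HAI1 these means were 9072 and 9158 against 5842 and 1224. In the libraries labelled HS and Salt+HS, HSP101 was at 17625 to 50165 and ELIP1 at 557 to 1127. Their HSP101 was above Control, as their label says, but no higher than in several libraries labelled without heat and far below HL+HS. Salt on HS is set beside salt on HL+HS as the labels give it, and each difference from it rests on these 6 libraries.

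**Figure D1:**
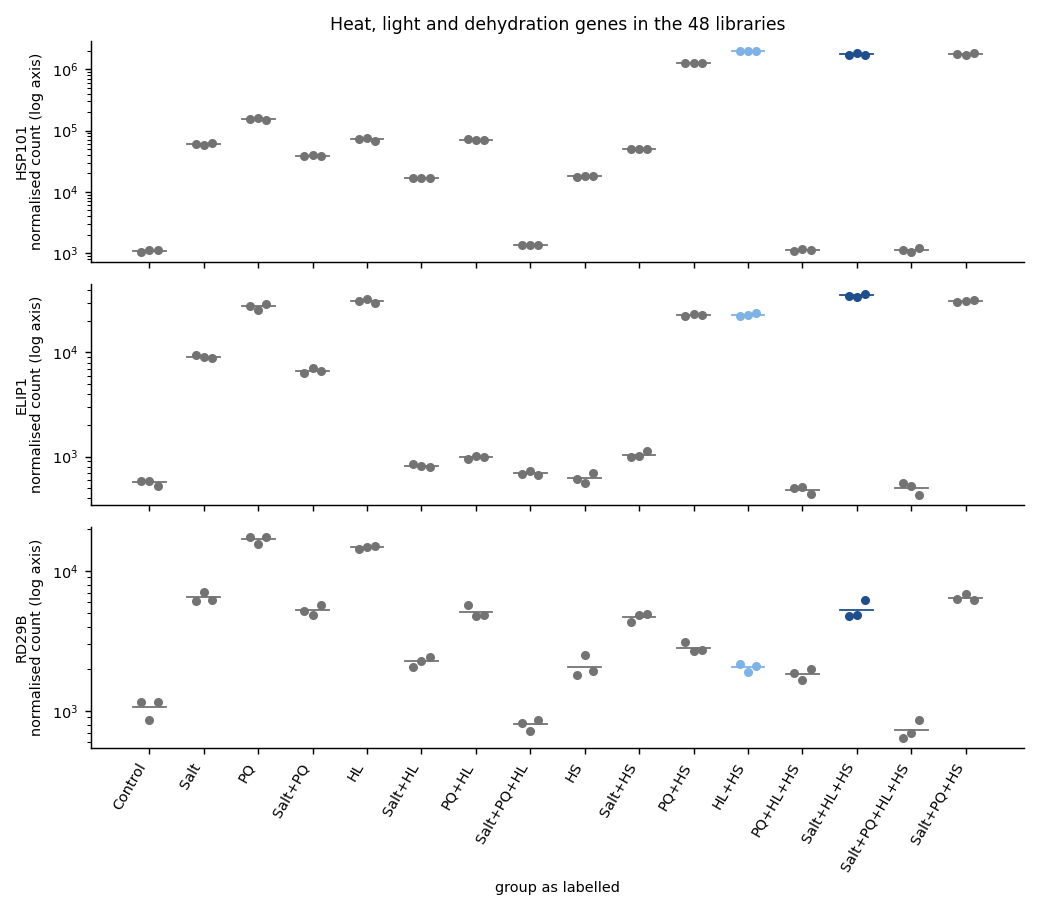
Normalised counts (log axis) of the heat gene HSP101, the light gene ELIP1 and the dehydration gene RD29B in each library, 1 point per library, by labelled group. The line marks the mean of 3 libraries. The 6 HL+HS and Salt+HL+HS libraries (blue) stand at 1721499 to 2003382 for HSP101, near those labelled PQ+HS and Salt+PQ+HS, while the libraries labelled PQ+HL+HS and Salt+PQ+HL+HS lie near Control.

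Salt changed the transcript level of 11795 of the 21536 genes (54.8% of those tested), 6016 higher (27.9%) and 5779 lower (26.8%), by limma at an adjusted p under 0.05. Most of these changes were small. The median size of the log2 fold change over all genes was 0.19, the median change was 0.01, and 858 genes changed at least 2-fold, 441 higher (2.05%) and 417 lower (1.94%). All 3 Salt+HL+HS libraries lay above all 3 HL+HS libraries for 6030 genes (28% of those tested) and below them for 5836 (27.1%). A fit of the 2 groups alone gave 10105 genes. The counts of called genes given for each list below are to be read beside the shares of 27.9% higher and 26.8% lower. In whole seedlings, fewer cells of a type and less RNA per cell cannot be told apart.

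The phosphatases of ABA signalling were all higher with salt. All 9 clade A PP2C genes passed the test upward, with a median log2 fold change of 0.67 against 0.01 over all genes, and their summed counts were 45150 to 46433 in HL+HS and 64672 to 65741 in Salt+HL+HS. HAI1 (highly ABA-induced PP2C 1) was at 2109, 2027 and 2177 normalised counts in HL+HS and at 6866, 6923 and 7101 in Salt+HL+HS. The 2 sets of libraries were far apart, and the log2 fold change was 1.73 ± 0.05 (SE; adjusted p = 8.77e-29). HAI2 went from 575, 586 and 515 to 1350, 1451 and 1422 (1.33 ± 0.09, adjusted p = 2.23e-16). HAI3, at 40.4, 27.0 and 51.9 in HL+HS and 114.9, 91.2 and 128.4 in Salt+HL+HS, rose by 1.50 ± 0.23 (adjusted p = 4.59e-07), again with no overlap. AHG1, a PP2C known from seeds, rose by 1.24, ABI2 by 0.67, ABI1 by 0.41 and PP2CA by 0.39.

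Salt on HS raised the same 9 phosphatase genes, but HAI1 by less. HAI1 had a mean of 1227 in HS and 2015 in Salt+HS, a log2 fold change of 0.71, and the difference between the effects of salt was 1.01 ± 0.07 (adjusted p = 4.26e-15). Of the 9 genes, 6 had a larger rise on HL+HS by this test and none a smaller one, where 14.8% of all genes had a higher effect and 16.6% a lower one.

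Of the ABA and dehydration response genes, 17 of 20 rose and 3 fell (RAB18, ABF4 and ERD14, by 0.20, 0.10 and 0.08 on the log2 scale), with a median of 0.34. Over all genes, 27.9% were higher and 26.8% lower. RD29B, a dehydration protein gene with a promoter rich in ABA elements, stood at 2177, 1899 and 2113 in HL+HS and at 4812, 4856 and 6170 in Salt+HL+HS. Its lowest salt library was above its highest library without salt, and it rose by 1.35 ± 0.11 (adjusted p = 3.23e-14). RD20, a caleosin, rose by 1.28, KIN1, a cold and dehydration gene, by 0.92, and RD29A by 0.34. The homeodomain factor HB7 went from 2274, 2134 and 2197 to 4185, 4086 and 4189 (0.92 ± 0.03), a larger rise than on HS by 0.54 (adjusted p = 2.23e-12). For RD29B the difference from salt on HS was 0.16 and did not pass the test (adjusted p = 0.458).

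The 250 bases before the annotated starts of RD29B and HAI3 are shown because both genes were higher with salt and both windows hold the letters ACGTG. They were read from the TAIR10.1 genome (RefSeq), on the strand of the gene, with ACGTG or its reverse complement CACGT in capitals. RD29B lies at chr5:21236771-21237020 on the plus strand, with 4 matches that start 143, 61, 38 and 10 bases before the start of the gene. HAI3 lies at chr2:12608425-12608674 on the plus strand, with 2 matches, 118 and 35 bases before it.
RD29B: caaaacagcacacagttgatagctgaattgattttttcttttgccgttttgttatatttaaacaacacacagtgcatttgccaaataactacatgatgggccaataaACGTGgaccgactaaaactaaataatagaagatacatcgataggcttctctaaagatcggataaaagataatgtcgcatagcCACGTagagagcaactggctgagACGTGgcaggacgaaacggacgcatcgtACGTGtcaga
HAI3: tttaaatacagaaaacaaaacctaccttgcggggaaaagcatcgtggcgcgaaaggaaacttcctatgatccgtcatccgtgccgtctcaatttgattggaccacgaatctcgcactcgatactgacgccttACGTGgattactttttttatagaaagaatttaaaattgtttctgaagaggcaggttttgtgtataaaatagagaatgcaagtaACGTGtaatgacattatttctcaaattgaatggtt

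HAI1, which also rose, had no ACGTG in the same window. Among 29 genes of the PP2C and dehydration lists, 19 promoters (65.5%) held ACGTG on either strand between 250 bases before and 50 after the start. The share was 28.0% of 21413 promoters read, 29.9% for genes higher with salt and 41% (180 of 439) for those at least 2-fold higher. It was also above the share of all genes in lists that did not rise, 52.6% for the antenna genes and 47.8% for the HSP genes, and 31.4% for genes at least 2-fold lower. For CACGTG, which contains ACGTG, the shares were 8.78%, 10.6% and 17.1%. The DRE core CCGAC was found in 16.0% of all and 16.5% of higher genes. These are descriptions of the letters in these windows.

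Genes that make and break down ABA were higher or not called. Of 11 tested genes, 7 rose and none fell, beside 27.9% of all genes higher and 26.8% lower. CYP707A1, which encodes an enzyme that inactivates ABA by hydroxylation, rose from 765, 716 and 669 to 1532, 1399 and 1472 (1.03 ± 0.06). NCED3, the dioxygenase gene for the main regulated step of stress-induced ABA synthesis, stood at 2466, 2456 and 2377 in HL+HS and at 3048, 3149 and 3057 in Salt+HL+HS. Its rise of 0.34 ± 0.06 (adjusted p = 1.55e-05) was in contrast to a fall of 0.16 with salt on HS, and the difference of 0.50 passed the test (adjusted p = 2.61e-05). BG1, a glucosidase that releases ABA from its glucose ester, rose by 0.58 and CYP707A4 by 0.52, while NCED9 had a difference of 0.41 that was not called (adjusted p = 0.205).

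Sodium and potassium transport genes moved both ways, 7 of 17 higher and 7 lower, beside 27.9% of all genes higher and 26.8% lower. The largest change was a fall of HAK5, a high-affinity potassium transporter, from 15.2, 25.4 and 32.1 to 7.56, 9.82 and 8.66 (-1.33 ± 0.26, adjusted p = 3.76e-05). CHX17, a cation/H+ exchanger, was at 879, 740 and 799 in HL+HS and at 375, 393 and 408 in Salt+HL+HS (-1.04 ± 0.10). The same gene differed by 0.21 with salt on HS (adjusted p = 0.088), and the difference of the effects was -1.24 (adjusted p = 2.61e-09). GORK, an outward potassium channel of guard cells and roots, rose by 0.61, and CBL10, a calcium sensor of the SOS pathway, fell by 0.52, though CBL10 overlaps GLDP1 on the other strand. SOS1 rose by only 0.17 (1092 to 1151 against 1242 to 1270, with no overlap). HKT1 stood at 133 to 165 and 135 to 153 in overlapping libraries, a difference of 0.03 ± 0.10 (adjusted p = 0.829).

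The proline synthesis genes P5CS1 and P5CR were higher with salt. P5CS1, which catalyses the rate-limiting step, was at 10509, 10470 and 10971 in HL+HS and at 18237, 19237 and 17447 in Salt+HL+HS (0.78 ± 0.03, adjusted p = 3.53e-23), and P5CR, the next enzyme, rose by 0.48. PRODH2, a proline dehydrogenase, fell by 0.76 from 204, 243 and 197 to 116, 147 and 117, and DIN10, a raffinose synthase-like gene, fell by 0.68. Of the 12 genes of proline and raffinose sugars, 5 rose and 3 fell, beside 27.9% of all genes higher and 26.8% lower. The mean of P5CS1 was 22641 in Control, above that of both groups compared. P5CS1, DIN10 and several other genes named here overlap a gene on the other strand, and whether counting used strand is not given in the sources used here. P5CR shares part of its sequence with other loci, with 86.5% of its 50-base words found once in the genome.

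**Figure D2:**
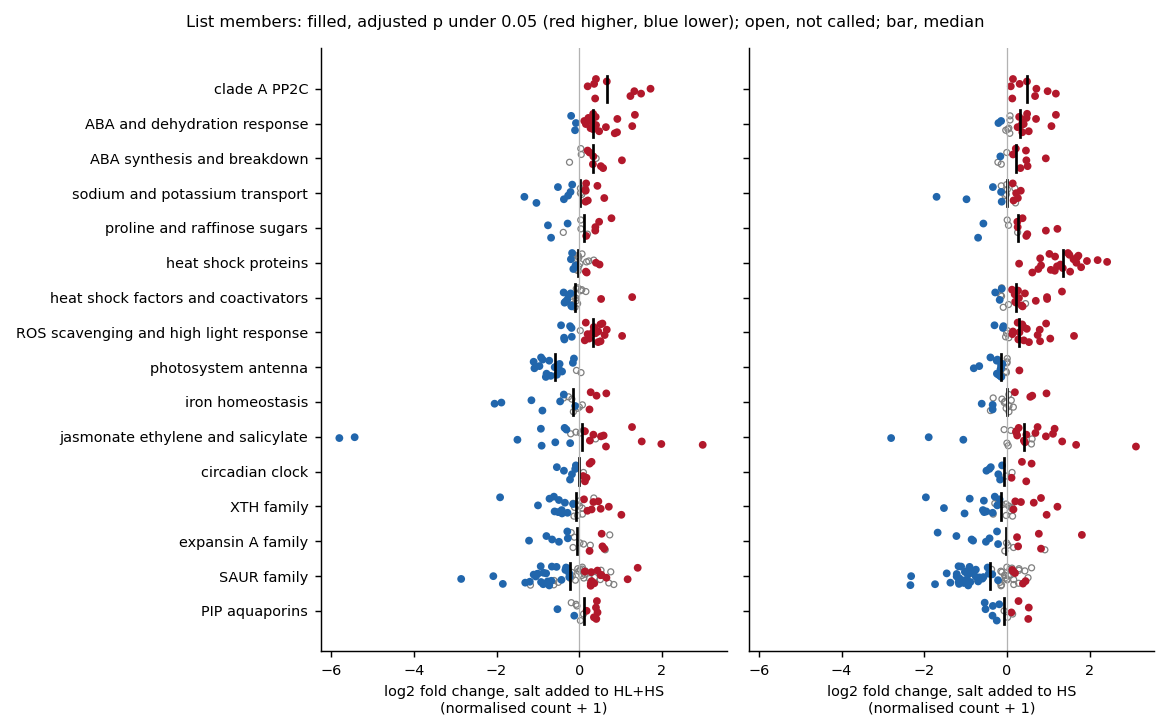
Log2 fold change of salt added to HL+HS (left) and to HS (right) for each tested member of the gene lists, 1 point per gene, with genes past the limma test filled and a bar at the median of the list. On HL+HS the PP2C genes lie above 0, all antenna genes but 1 below 0, and the heat shock proteins between -0.20 and 0.49, while on HS all 23 heat shock proteins are higher.

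HSP genes showed little change with salt on the HL+HS background. Of 23 HSP genes, 4 rose, 4 fell and 15 did not pass the test, with a median of -0.02 and a range of -0.20 to 0.49. The spread in this test was taken over all 16 groups, so a gene not called may still differ, as for HSP21 and HSP22.0 below. As a group they held 15.9% to 16.1% of all counts in HL+HS and 16.0% to 16.4% in Salt+HL+HS, against 1.10% to 1.14% in HS and 2.23% to 2.27% in Salt+HS. HSP101 stood at 2003291, 2003382 and 1953635 in HL+HS and at 1721499, 1834925 and 1734998 in Salt+HL+HS. Every salt library was lower, but the fall was small (0.17 ± 0.04 on the log2 scale, adjusted p = 0.000212). The members with the largest rises were HSP70-2, a cytosolic chaperone, from 15456, 16446 and 14964 to 20673, 22628 and 22628 (0.49 ± 0.04), and HSP23.5, a mitochondrial small HSP, by 0.41. HSP15.7, a small HSP of peroxisomes, fell by 0.20, HSP90.2 by 0.14 and HSP70-3 by 0.09.

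On HS without high light, salt raised all 23 HSP genes, with a median of 1.35. HSP101 went from a mean of 17903 in HS to 49834 in Salt+HS (1.48). The effect of salt on HL+HS was lower than that on HS for 23 of 23 HSP genes by the interaction test, with a median difference of -1.28, against 16.6% of all genes with a lower effect. These 23 calls held under every alternative that was run. For HSP101 the difference was -1.65 (adjusted p = 7.23e-26). HSP levels in HL+HS without salt were already far above those of Control, by a median of 10.68 on the log2 scale.

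HSP21, a small HSP of chloroplasts, and HSP22.0, one of the endoplasmic reticulum, had no overlap between the 2 sets of libraries but did not pass the main test. HSP21 stood at 213603, 218977 and 217631 against 281880, 275979 and 272487 (0.35 ± 0.27, adjusted p = 0.272), and HSP22.0 at 473549 to 496666 against 565312 to 569100 (0.23 ± 0.25, adjusted p = 0.454). The spread in that test was taken over all 16 groups. In a fit of only the 2 groups, and in edgeR and DESeq2 on the recovered reads, both genes were called.

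Of 22 tested HSF and coactivator genes, 2 rose and 8 fell, where 27.9% of all genes were higher and 26.8% lower. HSFA6B, an HSF linked to ABA and drought responses, went from 270, 311 and 338 to 679, 717 and 841 (1.28 ± 0.11, adjusted p = 3.17e-13), and HSFA7B rose by 0.53. HSFA3 fell by 0.38 and HSFB2B, a repressor type HSF, by 0.35. HSFA2, the HSF that sustains the heat response, had 414576 to 424234 counts in HL+HS and 465769 to 472915 in Salt+HL+HS (0.16 ± 0.09, adjusted p = 0.129), while salt on HS raised it by 1.33. MBF1C, a coactivator of heat tolerance, fell by 0.19 with salt on HL+HS and rose by 0.35 with salt on HS.

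**Figure D3:**
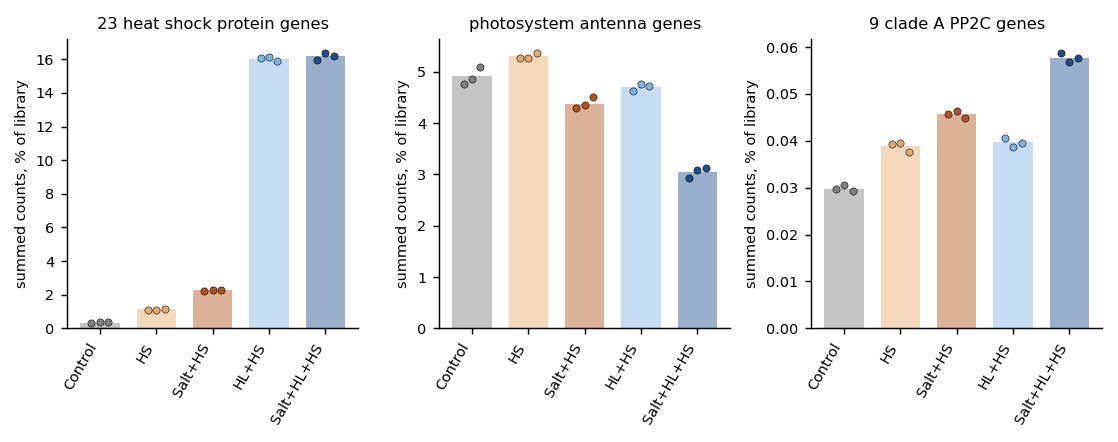
Summed counts of 3 gene lists as a percent of each library (vertical) in Control, HS, Salt+HS, HL+HS and Salt+HL+HS, with 1 point per library and bars at the mean. Antenna shares were lower in Salt+HL+HS (2.93% to 3.12%) than in HL+HS (4.62% to 4.77%), PP2C shares were higher, and HSP shares overlapped.

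The light-harvesting antenna was lower with salt. Of 19 tested antenna genes, which encode the chlorophyll-binding proteins of both photosystems, 17 fell and none rose, with a median of -0.59. Their summed counts went from 5286484 to 5550248 in HL+HS to 3283721 to 3518752 in Salt+HL+HS, or from 4.62% to 4.77% of all counts to 2.93% to 3.12%. LHCB2.3 of the main photosystem II antenna stood at 18581, 18746 and 19274 in HL+HS and at 8210, 8657 and 9534 in Salt+HL+HS (-1.10 ± 0.05, adjusted p = 8.76e-24). LHB1B1 fell by 1.08, LHCA1 of photosystem I by 0.96 and CAB3 by 0.92. LHB1B1 and CAB3 belong to near-identical copies, with 86.3% and 89.4% of 50-base words found once, so reads may have been shared among them.

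The antenna fell less with salt on HS. There, 13 genes fell and 1 rose (median -0.14), and LHCB2.3 had a difference of 0.00 (adjusted p = 0.98). The effect on HL+HS was lower for 17 of the 19 genes, against 16.6% of all genes. In HL+HS itself 16 of the 19 were higher than in Control, as were 42.7% of all genes. Of 6 mesophyll markers, 4 rose (RBCS1A, CA1, RCA and GLDP1, by 0.10 to 0.44) and 1, the antenna gene LHCB1.3, fell. Their summed counts were 3588584 to 3823016 in HL+HS and 3349948 to 3533836 in Salt+HL+HS, which did not overlap. The part of the leaf markers in the antenna result was not tested.

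ROS scavenging and high light genes were mostly higher, 16 of 23, with 6 lower and a median of 0.33. The shares over all genes were 27.9% higher and 26.8% lower. ELIP2, an early light-induced protein, stood at 1026, 956 and 1007 in HL+HS and at 2179, 2001 and 1965 in Salt+HL+HS (1.04 ± 0.13). CSD2, a chloroplast superoxide dismutase, went from 8454, 9529 and 8854 to 13928, 14265 and 14356 (0.67 ± 0.04). APX2, a heat- and light-induced ascorbate peroxidase, rose by 0.56, ELIP1 by 0.62, and the housekeeping peroxidase APX1 by 0.16. Those that fell were thylakoid TAPX, the zinc finger factor ZAT10, the NADPH oxidase RBOHD, the catalases CAT1 and CAT3, and OHP1, by 0.18 to 0.44. Against salt on HS, the effect was lower for 8 of the 23 genes and higher for 3, beside 16.6% and 14.8% of all genes. For ELIP2 it was lower by 0.59 (adjusted p = 0.00949), and for CSD2 and ELIP1 the differences of -0.13 each did not pass the test (adjusted p = 0.0637 and 0.325).

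Of 18 tested iron homeostasis genes, 4 rose and 7 fell, where 27.9% of all genes were higher and 26.8% lower. The Ib subgroup bHLH factors, which are induced in iron-deficient plants, all fell, and 3 of 4 ferritin genes rose. BHLH101 was at 194, 170 and 202 in HL+HS and at 39.3, 39.3 and 57.7 in Salt+HL+HS (-2.05 ± 0.12, adjusted p = 3.54e-19). BHLH100 went from 110, 106 and 105 to 24.2, 30.9 and 30.3 (-1.88 ± 0.12), although salt on HS left a difference of -0.06 (adjusted p = 0.71), and the effects differed by -1.82 (adjusted p = 3.57e-11). BHLH38 fell by 1.16 and BHLH39 by 0.46. FER2 rose by 0.66, FER4 by 0.42 and FER1 by 0.28, whereas FER3 fell by 0.37. The root iron uptake genes FIT, IRT1 and FRO2 did not pass the test, with values of -0.18, -0.26 and -0.38. NEET, an iron-sulphur cluster protein gene, rose by 0.25 (adjusted p = 0.00695) with overlapping libraries, 6564 to 7819 against 7472 to 9725, and lost its call without HL+HS replicate 3 (0.20, adjusted p = 0.0521) or Salt+HL+HS replicate 2 (0.14, adjusted p = 0.152). MYB10, a factor of iron-deficient roots, fell by 0.89, a call that was lost without Salt+HL+HS replicate 2 (-0.52, adjusted p = 0.169).

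Among called genes with a mean of at least 50 over the 6 libraries and no overlap, the largest falls were in plant defensin genes, small antifungal peptides that jasmonate and ethylene induce together. PDF1.2a was at 254, 248 and 142 in HL+HS and at 4.54, 2.81 and 4.33 in Salt+HL+HS (-5.43 ± 0.41, adjusted p = 4.29e-15). In reads this was 400 against 8, and the ratio of 55.0 after scaling had a 95% exact interval of 27.7 to 128.4 for counting error only. PDF1.2b went from 128, 105 and 76.4 to 1.51, 1.40 and 0 (-5.81 ± 0.46, adjusted p = 1.47e-14), with 192 reads against 2 and a ratio of 105.7 (28.9 to 878.9). The 2 sets of libraries were well apart in both genes. In Control the means were 10.4 ± 7.7 (SD, n = 3) for PDF1.2a and 2.4 ± 1.6 for PDF1.2b. All HL+HS libraries were above the Control libraries, which reached from 4.86 to 19.1 for PDF1.2a and from 0.81 to 3.99 for PDF1.2b.

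The neighbours of these genes on chromosomes 5 and 2 fell too. PDF1.2c was at 192, 191 and 110 in HL+HS and at 3.02, 1.40 and 13.0 in Salt+HL+HS (-4.96 ± 0.53), and PDF1.3 at 408, 356 and 278 against 15.1, 7.02 and 13.0 (-4.82 ± 0.32). All 4 also fell with salt on HS, by 2.80 for PDF1.2b, 1.89 for PDF1.2a, 1.94 for PDF1.2c and 1.76 for PDF1.3. The fall was greater on HL+HS, by interactions of -3.00, -3.54, -3.03 and -3.06 with adjusted p of 0.000295, 4.86e-06, 0.0015 and 9.16e-07. These genes were picked by their fall on HL+HS, which favours a greater fall there. The 4 are close copies, with 95.6% to 99.5% of their 50-base words found once in the genome, so a few reads may have been shared.

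The 250 bases before PDF1.2a (chr5:17907639-17907888, minus strand) and PDF1.2b (chr2:11088873-11089122, plus strand) are given because these genes led the falls. Capitals mark GCCGCC, the GCC box bound by ethylene response factors, a motif searched after the values were seen. It starts 222 bases before the start of PDF1.2a and 143 before that of PDF1.2b, on the strand shown.
PDF1.2a: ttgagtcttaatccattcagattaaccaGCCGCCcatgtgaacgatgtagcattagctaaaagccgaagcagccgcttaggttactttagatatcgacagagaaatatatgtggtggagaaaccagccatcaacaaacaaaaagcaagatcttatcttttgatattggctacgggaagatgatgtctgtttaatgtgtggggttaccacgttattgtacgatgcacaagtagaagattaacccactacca
PDF1.2b: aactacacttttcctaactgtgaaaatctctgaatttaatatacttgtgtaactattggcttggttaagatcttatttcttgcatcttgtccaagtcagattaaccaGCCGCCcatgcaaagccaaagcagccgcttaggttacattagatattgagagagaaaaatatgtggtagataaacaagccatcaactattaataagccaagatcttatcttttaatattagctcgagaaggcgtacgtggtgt

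PDF1.2c and PDF1.3 had no GCCGCC on either strand of the same 250 bases. The motif occurred in 2.67% of all 21413 promoters between 250 bases before and 50 after the start, in 2.35% of genes higher and 2.82% of genes lower with salt.

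Other genes of jasmonate, ethylene and salicylate moved both ways, 10 of 24 higher and 9 lower. Among all genes, 27.9% were higher and 26.8% lower. ORA59, an ethylene response factor that activates PDF1.2, fell by 1.50. LOX2, a chloroplast lipoxygenase of jasmonate synthesis, rose by 1.28, and LOX4 fell by 0.93. ACS2, an enzyme of ethylene synthesis, rose by 1.51, and ACS6 fell by 0.58. The salicylate marker PR2, a glucanase, was at 3.37, 3.18 and 7.64 in HL+HS and at 48.4, 35.1 and 43.3 in Salt+HL+HS (2.99 ± 0.58, adjusted p = 2.49e-05), on 9 and 87 reads. PR1 rose by 1.99, at 1.68, 11.1 and 9.17 against 15.1, 23.9 and 50.5, and PR5 fell by 0.91. The Control means of PR2 and PR1, 77.9 and 51.5, were above their Salt+HL+HS means of 42.2 and 29.8. With salt on HS 15 of the 24 rose and 3 fell, beside 23.4% of all genes higher and 23.1% lower. The effect on HL+HS was lower for 12 and higher for 1, beside 16.6% and 14.8% of all genes.

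**Figure D4:**
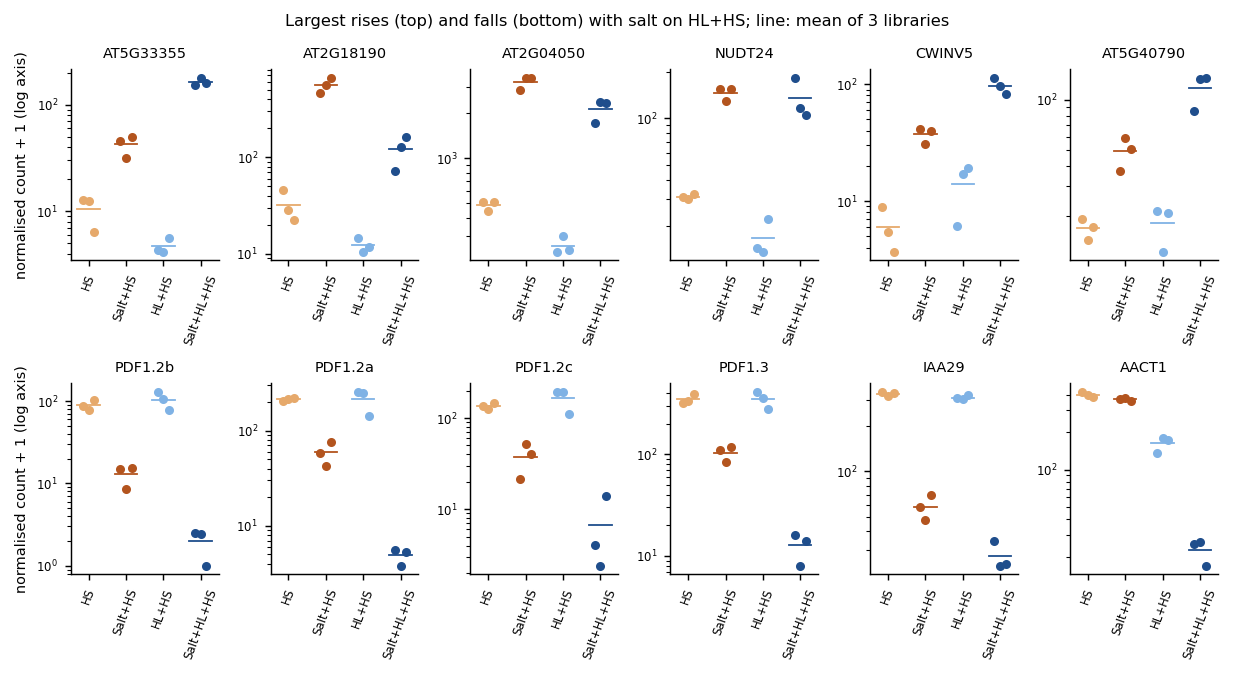
Normalised count + 1 (log axis) of the 6 genes with the largest rises and the 6 with the largest falls, among called genes with a mean of at least 50 over the 6 libraries compared and no overlap, in each library of HS, Salt+HS, HL+HS and Salt+HL+HS, with a line at the mean. The 4 PDF genes fell from 76.4 to 408 counts in HL+HS to 0 to 15.1 in Salt+HL+HS.

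Under the same limits, the largest rise was that of AT5G33355, annotated as a defensin-like gene (chr5:12599250-12599944, plus strand). It stood at 3.37, 3.18 and 4.58 in HL+HS and at 152.7, 176.8 and 157.2 in Salt+HL+HS (5.12 ± 0.43, adjusted p = 1.51e-13). The reads were 2, 2 and 3 against 101, 126 and 109, a ratio of 43.6 (95% exact interval 20.9 to 109.3), and only 77.4% of its 50-base words occur once in the genome. Salt on HS raised it by 2.05, and the effects differed by 3.08 (adjusted p = 0.000116). The mean of AT5G33355 was 18.5 in Control and 162 in Salt+HL+HS. AT2G04050, a MATE family transporter, went from 236, 300 and 243 to 1701, 2366 and 2347 (3.03 ± 0.21), close to its rise of 2.72 on HS (difference 0.31, adjusted p = 0.471). Its mean in Control was 2155, against 2138 in Salt+HL+HS.

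The other large rises were in genes of low count. AT2G18190 (a nucleoside triphosphate hydrolase family gene), NUDT24 (a Nudix hydrolase), CWINV5 (a cell wall invertase) and AT5G40790, which is uncharacterised, rose by 3.24, 2.99, 2.94 and 2.72. Their libraries did not overlap, with NUDT24 at 13.5, 12.7 and 21.4 in HL+HS and at 181, 117 and 104 in Salt+HL+HS. For AT5G40790 the rise exceeded that on HS by 1.19 (adjusted p = 0.0113), a call lost without HL+HS replicate 2 (0.93, adjusted p = 0.0587). CWINV5 overlaps AT3G13782 on the other strand. AT3G54530, named for its difference from the libraries labelled Salt against Control, rose by 1.40 (adjusted p = 0.00721). Its mean was 158 in Control and 101 in Salt+HL+HS.

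Among the large falls outside the defensins, IAA29, an auxin signalling repressor induced in shade and warmth, was at 307, 302 and 321 in HL+HS and at 33.3, 22.5 and 23.1 in Salt+HL+HS (-3.53 ± 0.16, adjusted p = 1.53e-22). It fell by 2.53 with salt on HS, and the effects differed by -1.004 (adjusted p = 0.0005). AACT1, annotated as an anthocyanin acyltransferase gene, went from 135, 179 and 173 to 24.2, 25.3 and 15.9 (-2.86 ± 0.18). On HS it differed by -0.13 with salt (adjusted p = 0.6), so the effects differed by -2.73 (adjusted p = 1.24e-11).

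Growth genes moved both ways. Of 125 tested genes of the XTH (cell wall transglycosylases), expansin A, SAUR (small auxin-up RNA) and PIP aquaporin families, 44 fell and 30 rose, beside 26.8% of all genes lower and 27.9% higher. In the SAUR family 24 of 64 fell and 12 rose (median -0.21), led by AT4G34790, from 79.2, 47.6 and 42.8 to 3.02, 5.61 and 15.9 (-2.86 ± 0.38). AT2G37030 fell by 2.08 and AT3G53250 by 1.85. XTH13, a root XTH, fell by 1.92 with overlapping libraries (22.9 to 49.2 against 3.02 to 23.1). Of the XTH genes 12 of 30 fell and 8 rose, and of the expansins 6 of 18 fell and 4 rose. PIP aquaporins, the water channels of the plasma membrane, went the other way, with 6 of 13 higher and 2 lower. Salt on HS lowered 33 of the 64 SAUR genes and raised 5.

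The circadian clock genes, which set the daily rhythm of transcription, changed by small amounts, 5 of 12 higher and 6 lower. Over all genes, 27.9% were higher and 26.8% lower. The repressors PRR3 and PRR7 fell by 0.54 and 0.37. The morning-expressed factors CCA1 and LHY rose by 0.30 and 0.25, CCA1 from 17338 to 18214 counts to 21034 to 22165, with no overlap. TOC1 fell by 0.08 with overlapping libraries, and its call was lost when libraries were scaled to their total (-0.05, adjusted p = 0.129) and without HL+HS replicate 3 or Salt+HL+HS replicate 3 (-0.07 each, adjusted p = 0.0524).

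Organelle transcripts are few where mRNA is selected by its poly(A) tail, and the library kit is not named in the labels. Of 82 tested plastid genes 3 rose and none fell, and of 37 mitochondrial genes 10 rose and none fell, with a median of 0.59. The share that rose was no higher than the 27.9% over all genes. The mitochondrial sum was 40190 to 45547 in HL+HS and 58596 to 61680 in Salt+HL+HS. ATMG00560 was at 37.1, 46.0 and 50.4 against 96.8, 119.3 and 79.4 (1.12 ± 0.42, adjusted p = 0.0215), a call lost without HL+HS replicate 1 (1.00, adjusted p = 0.0755) or Salt+HL+HS replicate 2 (0.97, adjusted p = 0.0826). ATCG00160 rose by 1.19 with overlapping libraries (adjusted p = 0.0263) and was not called by edgeR (1.26, adjusted p = 0.281) or without any 1 of 4 of the libraries. The plastid members with the next largest values, ATCG01120, ATCG00380 and ATCG01070, and the mitochondrial ATMG00150, ATMG00120 and ATMG00140, did not pass the test (0.84 to 2.05).

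Cell type markers also moved with salt, beside 27.9% of all genes higher and 26.8% lower. Except for guard cells, each set below had members that rose and members that fell. All 5 guard cell markers had values below 0 and 4 passed the test, MYB60 at -0.83, KAT1 at -0.42, SLAC1 at -0.38 and FAMA at -0.19, with sums of 1721 to 1806 in HL+HS and 1262 to 1347 in Salt+HL+HS. Of 8 root markers, the root hair genes COBL9, EXPA7 and RHS19 fell by 0.86, 0.66 and 0.47 and PYK10 rose by 0.46. The root sum, which is mostly PYK10, was 52248 to 52919 against 64694 to 76848. Of 5 dividing cell markers 1 rose and 2 fell. Seed storage sums were 2364 to 4809 and 561 to 1823, where cruciferins CRA1 and CRU3 fell by 2.25 and 2.37, and SESA1 and SESA3 rose by 3.39 and 2.41. Sequence shared between the SESA genes was not measured. No marker was at 0 in all 6 libraries. The part of these markers in the changes of GORK, the SAUR, XTH and expansin genes and the iron genes of roots was not tested.

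Among genes called on both backgrounds, the effect of salt on HL+HS mostly had the direction of its effect on HS. The effects differed by the interaction test for 31.4% of all genes. Salt on HS changed 10009 genes (46.5%), 5029 higher (23.4%) and 4980 lower (23.1%). Of 6865 genes called on both backgrounds, 6098 had the same direction, 2986 higher and 3112 lower. These 2986 were 49.6% of the genes higher on HL+HS and 59.4% of those higher on HS, and the 3112 were 53.9% and 62.5% of the lower genes. The direction was opposite for 767 genes, 335 of them higher on HL+HS. Across genes, which are not independent replicates, Pearson's r of the 2 sets of log2 fold changes was 0.54. These 4 groups share no library. The difference between the effects passed the test for 6768 genes (31.4%), 3194 higher on HL+HS and 3574 lower. Scaling to the library total gave 4528 and 2579.

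**Figure D5:**
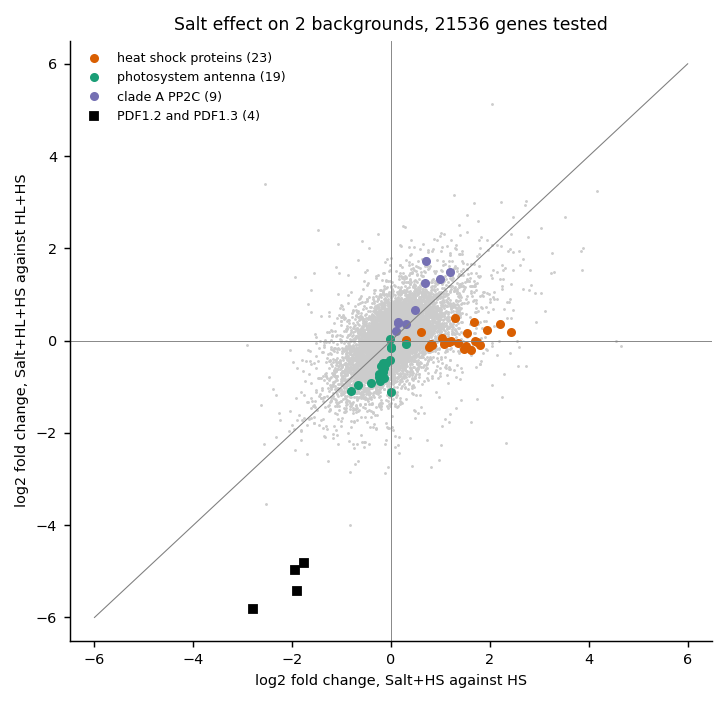
Log2 fold change with salt on HL+HS (vertical) against that on HS (horizontal), 1 point per gene, with the HSP, antenna, PP2C and PDF genes marked. Heat shock proteins lie to the right, high on HS and between -0.20 and 0.49 on HL+HS. Antenna genes lie between -1.10 and 0.04 on HL+HS.

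Against the libraries labelled Salt and Control, the effect of salt differed for 16158 genes (75%), and against those labelled Salt+HL and HL for 15007 (69.7%). The libraries labelled Salt had HSP101 at 58656 to 63376 and ELIP1 at 8861 to 9382, far above Control although neither heat nor high light is in their label. These 2 differences rest on such libraries and no member is described from them beyond the 3 genes with the highest and the 3 with the lowest values against salt alone, AT2G18190, NUDT24 and AT3G54530, and PDF1.2a, PDF1.2b and PDF1.2c.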

How the data were processed

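Per the labels, total RNA of Col-0 seedlings was sequenced in 48 libraries, 3 for each of 16 groups, and the submitters' processing notes name FastQC 0.11.7, STAR 2.4.0.1, DESeq2 1.20.0 and the TAIR10 build. The deposited values are a signal, gene counts that the authors divided by DESeq2 size factors. Whole reads were recovered from their steps for 100% of values and used for depth, edgeR and DESeq2 only. Genes with a mean of at least 10 were tested with limma 3.58.1 (R 4.3.3, trend, 1 term per group, all 48 libraries, no block) on log2(count + 1), which understates changes of low genes. Genes were called at a Benjamini-Hochberg adjusted p under 0.05 over 21536 genes. Size factors were 0.661 to 0.713 for Salt+HL+HS and 0.594 to 0.655 for HL+HS, within 0.594 to 1.34 overall. Counts of replicates differed by more than sampling noise (chi-square per degree of freedom 3.08 to 7.08). Exact intervals of read ratios cover counting error only. Columns were matched to samples by title.

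Named genes were the 6 largest rises and falls among called genes with a mean of at least 50 over the 6 libraries and no overlap, the 3 largest interactions with salt alone in each direction, and the 2 to 4 largest changes and defining members of each list. Picking genes by their change on HL+HS favours a difference from salt on HS. Other members given with values were chosen after these were seen. The members and lists were chosen with earlier results of these data known. Alternatives were edgeR 4.0.16, DESeq2 1.42.0, other pseudocounts (0.1, 10), filters, scalings, samples in the fit, a replicate block and single libraries left out. Promoters were read from TAIR10.1, whose annotation held 32548 of the 32833 genes. The scripts were tested on simulated data.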

Additional observations from a re-analysis of the deposited data

Results flagged for a closer look

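The effect of salt on the HL+HS background differed from its effect on HS for 6768 genes by limma's test of the difference (Benjamini-Hochberg adjusted p under 0.05). It differed from that of the libraries labelled Salt against Control for 16158 genes, and from that of Salt+HL against HL for 15007, where the labelled libraries hold heat and light gene levels that go against their labels.

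Of the 13 genes named for the largest changes or the largest interactions with salt alone, 8 differed between HL+HS and HS, beside 31.4% of all genes. They were picked by effects measured on the same HL+HS and Salt+HL+HS libraries, which favours such a difference. AT5G33355 and AT5G40790 rose more on HL+HS, by 3.08 and 1.19 on the log2 scale. The defensin genes fell more on HL+HS, by an interaction of -3.00 for PDF1.2b, -3.54 for PDF1.2a, -3.03 for PDF1.2c and -3.06 for PDF1.3. The interaction was -1.004 for IAA29 and -2.73 for AACT1. Groups of 3 libraries were not tested for single libraries that lie apart.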

How the results depend on the processing

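Over the pseudocounts, filters, scalings, fits and tools tried, the number of genes called for salt on HL+HS lay between 10105 (only the 2 groups in the fit, 9865 of them shared with the 11795) and 12011 (no filter on low genes). It was 11044 with edgeR, 10828 with DESeq2, 11171 after quantile normalization and 10908 to 11116 with 1 library left out. When all libraries were given equal totals, 6860 were higher and 4873 lower. A fold change of at least 2 as well left 858 (441 higher, 417 lower), and left 464 genes of the difference from salt on HS, 4835 of that from the labelled Salt libraries and 4467 of that from the labelled Salt+HL libraries. The difference from salt on HS gave 5697 to 7107 genes over the other settings and 6243 to 6472 with 1 library left out. Under equal totals its split was 4528 higher to 2579 lower, in place of 3194 to 3574. The fit with the 5 groups of Control, HS, Salt+HS, HL+HS and Salt+HL+HS was added after seeing the data and gave 11147 and 5961. With the replicate number as a block, 11797 genes were called for salt on HL+HS, and 6751, 16146 and 15019 for its differences from salt on HS, on Control and on HL. Same-numbered libraries did not deviate together (correlations -0.00039, 0.035 and 0.0088), so no pairing by number was seen in the values. Whether they shared a plate set or a day cannot be told from this. Of 82 named genes, 66 kept their side of the threshold under every alternative run and none changed direction. AT3G54530 lost its call with a pseudocount of 0.1, and MBF1C after quantile normalization. Genes of fewer than 10 reads per library, such as AT5G33355 in HL+HS, have fold changes that depend on the pseudocount.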

Other observations

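Further gene groups were collected after their values had been seen, so their counts are descriptions. They are to be read beside the 27.9% of genes higher and 26.8% lower in the whole table. Counts of differences from salt on HS are to be read beside 14.8% of all genes higher and 16.6% lower. Sulphur limitation genes were higher with salt on HL+HS, 8 of 9, with none lower and a median log2 fold change of 1.08. SDI1, a repressor of glucosinolate synthesis induced by low sulphur, had a mean of 355 ± 35.2 normalised counts in HL+HS and 1700 ± 7.2 in Salt+HL+HS (SD, n = 3; 2.26 by limma, adjusted p = 2.44e-23), a larger rise than on HS by 1.28. Salt on HS raised all 9 genes, and the effect on HL+HS was higher for 3 of them and lower for 3. BGLU28, a glucosidase of glucosinolate breakdown, went from 72.1 ± 10.5 to 438 ± 48.3, and GGCT2;1, of glutathione breakdown, from 204 ± 15.8 to 812 ± 42.5. ICL, the isocitrate lyase of the glyoxylate cycle, rose by 2.17, and malate synthase MLS and PCK1 rose by 0.57 and 0.24. Salt on HS also raised all 3 of these genes.

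All 11 regulators of shade avoidance in the collected set were lower with salt (median -1.08). Salt on HS lowered 9 of them and raised none (median -0.58), and the effect on HL+HS was lower for 6 and higher for 1. HAT1, a homeodomain factor induced by shade, went from 1657 ± 40.6 in HL+HS to 563 ± 14.7 in Salt+HL+HS. On the same background HB4 and PAR1 fell by 1.57 and 1.49. Of 12 tested early stress regulators, 11 fell and WRKY46 rose by 0.44 (median -1.17). WRKY40 went from 1772 ± 113 to 623 ± 25.5 (-1.51), although it rose by 0.46 with salt on HS, and WRKY33 fell by 1.04 on HL+HS and rose by 0.42 on HS. The kinase gene MPK3 fell by 1.17 and the factor ERF6 by 1.65. The effect on HL+HS was lower than on HS for 11 of these 12 genes by the interaction test, against 16.6% of all genes.

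Of 6 tested genes of nitrate uptake and reduction, 4 fell and 2 rose, and with salt on HS 4 fell and 1 rose. NIA1, a nitrate reductase, went from 116683 ± 3300 in HL+HS to 33647 ± 1824 in Salt+HL+HS, and NIA2 fell by 0.66 on the log2 scale. NRT1.8, which removes nitrate from the xylem, went from 209 ± 30.3 to 837 ± 71.5 (2.00). Among 70 genes annotated as late embryogenesis abundant proteins, which protect dehydrated cells, 31 rose and 9 fell (median 0.27), led by AT3G02480, AT3G53040 and LEA4-5 with rises of 1.73, 1.62 and 1.56. Salt on HS raised 31 of the 70 and lowered 4 (median 0.25).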
